A study of Mus musculus with 12 samples.

Results

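The 6 arrays of cultured fetal mouse kidneys labelled beta-catenin activated were compared with each other. The arrays of the series, 12 in all, carry title numbers that fall into a lower and a higher run, and 3 activated arrays lie in each. The members were taken by title number alone, the lower run holding the arrays called lower 1, lower 2 and lower 3 here and the higher run those called higher 1, higher 2 and higher 3. The 6 wildtype arrays, 3 in each run, served for the same contrast without activation. The labels give no meaning for the runs, so a difference between them may hold any condition that changed with the title number.

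All 12 samples were of the C57BL/6 strain. Pregnant mice of both groups were injected intraperitoneally with tamoxifen, 2 mg per 40 g of body weight, at 10.5 days post coitum (dpc). Kidneys were dissected at 10.5 dpc and cultured for 3 to 4 days on Transwell membranes in an equal mix of F12 and DMEM that held 5 µg/mL of transferrin, as much insulin, and 5 ng/mL of selenium. The labels call the activated samples kidneys with tumors and the wildtype samples normal. They do not name the Cre line, its promoter or the beta-catenin allele, nor say which kidneys had the shorter culture, whether kidneys were pooled, or whether arrays came from separate embryos. The p-values therefore measure only the spread between these arrays, which may be technical.

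In canonical Wnt signalling beta-catenin enters the nucleus, where it binds Tcf/Lef factors and switches on target genes. Several of those targets encode inhibitors that restrain the pathway, so their level is a common readout of its activity. In the fetal kidney the signal acts on the cap mesenchyme, the pool of nephron progenitors marked by Six2, both to keep the pool and to start its conversion into renal vesicles. Levels below are log2(intensity + 16) after quantile normalisation, and differences are the higher run minus the lower run on that scale, so that rose and fell mean higher and lower in the higher run. The highest bacterial control probe set, for transcripts absent from mouse tissue, read 5.45, and a level under it is near background. The samples kept fetal kidney markers: Wt1, a transcription factor of the nephron lineage, lay between 8.95 and 9.51 in the 6 activated arrays, and Calb1, a calcium-binding protein of the ureteric bud, between 10.53 and 11.15.

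In activated kidneys 345 of 12393 genes (2.78%) passed limma's test between the runs at an adjusted p of 0.05. Of these, 246 rose (1.98% of all tested) and 99 fell (0.799%). The runs did not overlap in any of the 345 genes. Over all genes, 1411 (11.4%) lay higher and 1081 (8.72%) lower in the higher run without overlap. An unadjusted p under 0.05 was found for 1803 genes, and 232 of the 345 called genes differed by at least 1 on the log2 scale. In 66 of them the mean of the dimmer run was at or under the bacterial control, and in 7 both means were. The count depended on single arrays: it was 118, 217, 126, 90 and 167 without lower 1, lower 3, higher 1, higher 2 and higher 3, and 426 without lower 2. In each of the fits that left out 1 array, 56 of the 246 risen and 26 of the 99 fallen genes were called.

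The first principal component of the 6 activated arrays held 34.8% of the variance and put the lower run between -39.44 and -8.58 and the higher run between 9.68 and 28.45. The second held 30.3% and set lower 2 (22.59) and higher 3 (31.99) apart from the other arrays, which lay between -31.71 and 0.31. These arrays also had the highest ratios of 5' to 3' control signal, a measure tied to RNA quality and labelling, at -0.26 and -1.06 against -2.43 to -2.00 on the log2 scale in the others. Higher 1 and higher 3 read 10.90 and 11.52 for Xist, the RNA of the inactive X chromosome, while the other activated arrays read 5.03 to 5.90. The mean of 3 Y-linked genes was 4.24 in higher 3 and between 7.38 and 8.65 in the rest, so higher 1 had both signals. With the Y-linked mean as a covariate 254 of the 345 genes stayed called, with the 5' to 3' ratio 345 of 345, and without lower 2 and higher 3 together 567 genes were called.

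**Figure D1:**
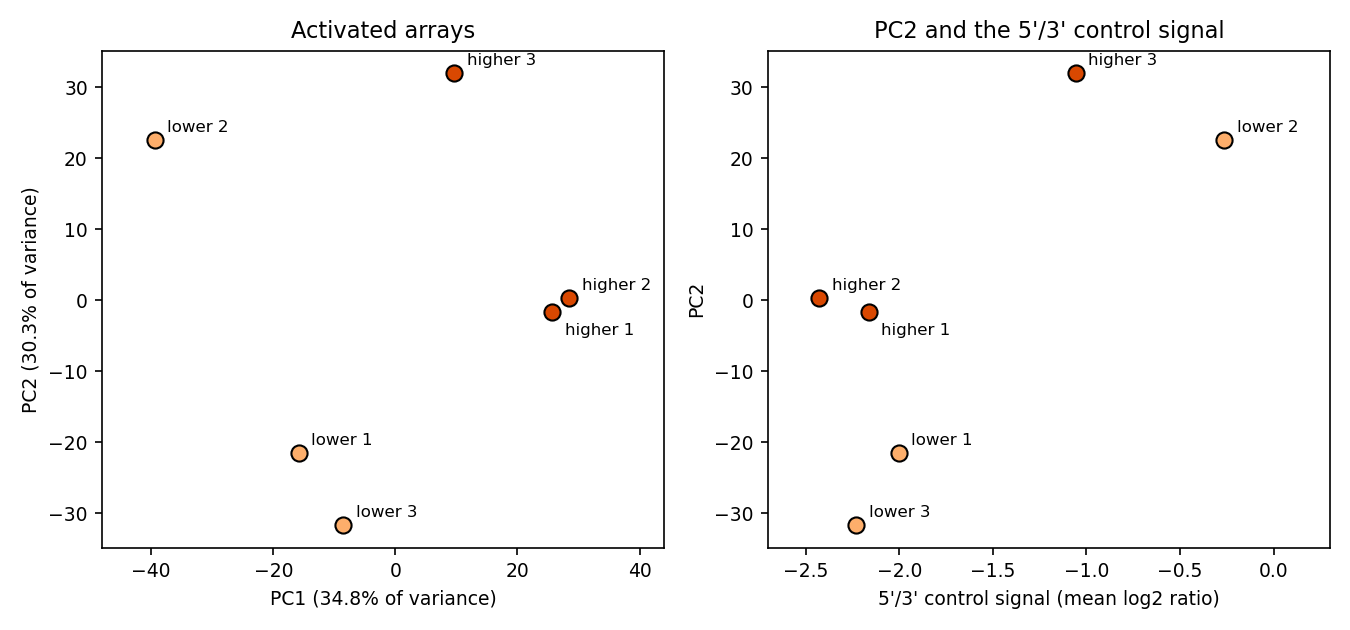
The left panel plots the first against the second principal component of the 6 activated arrays and the right panel the second component against the mean log2 ratio of 5' to 3' control signal; pale points are the lower run and dark points the higher run. The runs separate on the first component, and lower 2 and higher 3, with ratios of -0.26 and -1.06, lie highest on the second.

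Several genes that limit Wnt signalling were lower in the higher run of activated kidneys. Of 18 measured Wnt feedback inhibitors 8 fell (44.4%, against 0.799% of all genes tested) and 0 rose. The median over the 18 was -0.91, where that of all genes tested was -0.0021. In wildtype kidneys 1 of the 18 fell, Sfrp2, and the median was 0.16. The fallen genes were Dkk1, Notum, Wif1, Nkd2, Sp5, Axin2, Frzb and Apcdd1. Of the 18 genes 6 differed upward, and 2 were higher at an unadjusted p under 0.05 by limma, against 1064 of all 12393 genes. Without a single array between 6 and 8 of the 18 listed genes fell, Nkd1 among them in 1 of the 6 fits. Without lower 2, 1 of the 18 rose, and 0 did in the other fits.

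The sequences just before the start of the 4 fallen genes with the largest falls among those held by the RefSeq promoter table (GRCm38.p6) are printed so that Tcf/Lef motifs can be seen in place. Each runs 5′ to 3′ on the gene's strand over 250 bases before the start, with capitals for CTTTGA or CTTTGT on either strand, where the reverse forms are TCAAAG and ACAAAG. The searched windows are for Dkk1 chr19:30549497-30549746 (minus strand), for Wif1 chr10:121033754-121034003 (plus), for Nkd2 chr13:73847632-73847881 (minus) and for Sp5 chr2:70474673-70474922 (plus).
Dkk1: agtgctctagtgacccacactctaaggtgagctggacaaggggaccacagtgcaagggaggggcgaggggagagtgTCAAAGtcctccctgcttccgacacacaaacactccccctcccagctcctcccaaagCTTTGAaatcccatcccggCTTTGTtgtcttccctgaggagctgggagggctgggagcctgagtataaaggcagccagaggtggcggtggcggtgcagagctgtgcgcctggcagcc
Wif1: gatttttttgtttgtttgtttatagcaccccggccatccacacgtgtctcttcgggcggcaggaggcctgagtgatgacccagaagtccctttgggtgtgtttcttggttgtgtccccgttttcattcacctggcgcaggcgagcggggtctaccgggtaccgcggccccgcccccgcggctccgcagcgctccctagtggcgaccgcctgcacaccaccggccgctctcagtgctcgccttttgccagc
Nkd2: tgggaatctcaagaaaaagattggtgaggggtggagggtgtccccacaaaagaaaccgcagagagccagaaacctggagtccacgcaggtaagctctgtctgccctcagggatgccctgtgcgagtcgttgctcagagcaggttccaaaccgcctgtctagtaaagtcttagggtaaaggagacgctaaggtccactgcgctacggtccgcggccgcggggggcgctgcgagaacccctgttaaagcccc
Sp5: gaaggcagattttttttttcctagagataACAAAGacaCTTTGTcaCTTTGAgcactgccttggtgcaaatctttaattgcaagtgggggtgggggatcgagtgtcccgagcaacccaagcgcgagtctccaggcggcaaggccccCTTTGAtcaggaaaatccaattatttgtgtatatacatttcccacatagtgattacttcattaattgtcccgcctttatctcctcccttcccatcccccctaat
The Dkk1 window holds 3 motifs and the Sp5 window 4, none overlapping another, and the Wif1 and Nkd2 windows hold 0. Of the 8 fallen genes 6 have an entry in the table, and 3 of these 6 windows hold a motif. Of the 10 measured feedback genes that did not fall 4 have an entry, and 1 of these holds one. Over all 32851 windows in the table the share with a motif is 27.6%. A match is a description of letters, and its absence from this window says nothing of the factor.

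Dkk1, a secreted antagonist that binds the Wnt co-receptors, read 9.54, 9.84 and 9.79 in the lower run and 6.89, 6.60 and 6.57 in the higher run. It fell by 3.04 (SE 0.18, adjusted p = 0.000133 by limma), a fold of 8.20, the largest fall among called genes brighter than the bacterial control. The lower run lay above all wildtype arrays, which read 6.09 to 7.17, and the higher run lay within their range. Notum, an extracellular enzyme that removes the lipid from Wnt ligands, read 9.55, 10.06 and 8.96 and then 6.65, 6.66 and 7.22, a fall of 2.68 (SE 0.29, adjusted p = 0.0018). The wildtype arrays read 6.44 to 6.93. Lower 2 was the brightest and lower 3 the dimmest of the lower run, yet the runs stayed more than 1 log2 unit apart.

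Wif1, which encodes a secreted protein that binds Wnts, read 8.67, 9.04 and 8.95 in the lower run and 6.43, 6.06 and 6.71 in the higher run. The higher run stayed above all wildtype arrays, which lay between 4.05 and 5.17 and thus near background. Its fall was 2.49 (SE 0.22, adjusted p = 0.000708). Apcdd1, a membrane-bound inhibitor of the pathway, read 12.81, 12.69 and 12.80 and then 11.56, 11.41 and 11.59. Here too the higher run lay above the wildtype range of 9.41 to 10.50, after a fall of 1.24 (SE 0.08, adjusted p = 0.000238), and its other 3 probe sets differed in the same direction. Nkd2, an intracellular inhibitor that binds Dishevelled and was named after its values were seen, read 8.71, 9.02 and 8.45 and then 6.96, 6.78 and 6.87, again above the wildtype range of 4.36 to 5.90 in both runs, and fell by 1.85 (adjusted p = 0.00187).

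Axin2, a scaffold of the complex that marks beta-catenin for degradation, read 9.08, 9.03 and 8.84 in the lower run and 7.55, 7.46 and 7.12 in the higher run. Its fall was 1.61 (SE 0.18, adjusted p = 0.00225), and higher 3, the dimmest of its run, lay within the wildtype range of 6.53 to 7.38. Frzb, another secreted Wnt-binding protein, read 8.20, 8.61 and 8.26 and then 6.55, 6.83 and 7.33. Sp5, a transcription factor downstream of Wnt, read 7.30, 7.75 and 7.30 and then 5.34, 5.29 and 6.35; both genes were named after their values were seen. Frzb was called in 3 of the 6 fits without an array and Sp5 in 1 of 6, with adjusted p up to 0.095 and 0.12, both largest without higher 2. Nkd1 differed by -1.81 without passing (adjusted p = 0.11), and Sfrp1 (0.88), Sostdc1 (0.57) and Dkk2 (0.08) did not pass either.

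Of 25 measured Wnt ligands, receptors and beta-catenin itself 0 rose and 0 fell by limma, with a median of -0.04. At an unadjusted p under 0.05, 3 were higher and 3 lower, against 1064 and 739 of all 12393 genes. Ctnnb1, the beta-catenin gene, read 12.90, 12.85 and 12.97 in the lower run and 13.01, 12.86 and 12.94 in the higher run, so the runs overlapped. Its difference of 0.03 turned negative under other scalings and for its other 2 probe sets, and its probes were not matched here to any altered stretch of the gene. Among 19 other Wnt targets and Tcf/Lef factors 4 rose (21.1%, against 1.98% of all genes) and 0 fell. These were Ccn2, Ccn1 and Ccn4, matrix-associated signalling proteins, and Cd44, a hyaluronan receptor. Ccn2 read 8.24, 8.69 and 8.69 and then 11.12, 11.33 and 11.45, a rise of 2.75 (SE 0.16, adjusted p = 0.000133), and in wildtype kidneys it rose by 1.60. The rises of Ccn1 (1.57, adjusted p = 0.0151), Ccn4 (1.36) and Cd44 (1.22, adjusted p = 0.0205) were lost without some single arrays: the list had 1 call without lower 1, higher 2 or higher 3. In wildtype kidneys Ccn1 and Cd44 differed by 1.59 and 1.51. There 3 of the 19 rose and 0 fell, with a median of 0.10 against 0.14 in activated kidneys. Lef1 (-0.55), Lgr5 (-1.05), Ccnd1 (-0.55) and Myc (0.26) did not pass.

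Genes of the nephron progenitors were higher in the higher run. Of 22 measured genes of the cap mesenchyme 5 rose (22.7%, against 1.98% of all genes) and 0 fell, with a median of 0.50. Between 4 and 5 rose when 1 array was left out. In wildtype kidneys 0 of the 22 rose and 2 fell, Meox2 and Dcx, with a median of -0.20. The summed intensity of the list ranged from 2163 to 2636 in lower-run and from 4017 to 5338 in higher-run activated arrays, against 5059 to 6529 in all wildtype arrays. In bulk RNA, fewer cells of a type and less RNA per cell cannot be told apart.

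Six2, the transcription factor that keeps progenitors undifferentiated, read 8.31, 7.82 and 7.92 in the lower run and 9.96, 10.24 and 9.35 in the higher run, a rise of 1.84 (SE 0.24, adjusted p = 0.00464). The wildtype arrays read 9.72 to 10.32, a range that held higher 1 and higher 2 and lay above higher 3 and the lower run. Cited1, a transcriptional co-regulator of the earliest progenitors, read 5.94, 6.10 and 5.08 and then 7.91, 8.14 and 8.48, with lower 3 under the bacterial control. Its rise was 2.47 (SE 0.31, adjusted p = 0.00374). Capn6, a calpain-family protein without protease activity, read 8.46, 8.60 and 8.49 and then 10.39, 10.41 and 9.96, against 10.20 to 10.72 in wildtype kidneys. Dcx, doublecortin, a microtubule-binding protein best known from neurons, read 4.99, 4.83 and 5.39 and then 7.81, 7.79 and 7.35. All lower-run activated arrays were thus near background for Dcx, while the wildtype arrays read 7.65 to 8.65. Traf1, a signalling adaptor named after its values were seen, rose by 1.59 (adjusted p = 0.0198) and was called in 2 of the 6 fits without an array. Eya1 (0.82), Gdnf (0.69), Osr1 (-0.23) and Sall1 (0.23) did not pass.

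Genes of the next step, the renal vesicle, went the other way. Of 23 measured genes 5 fell (21.7%, against 0.799% of all genes) and 0 rose, with a median of -0.26 against 0.01 in wildtype kidneys. Without 1 array 2 to 5 fell (2 without lower 1, higher 1 or higher 2, and 3 without higher 3). Dkk1 is among the 5. Hey1, a Notch target, read 9.03, 8.99 and 9.12 and then 8.04, 7.72 and 7.70, a fall of 1.23 (adjusted p = 0.00539) kept without any single array. Bmp2, a bone morphogenetic protein, fell by 1.47 (adjusted p = 0.0242), but was called only in the fit without lower 2 when arrays were left out. Irx3, a homeobox factor, fell by 1.30 and lost its call without lower 1, higher 1 or higher 2 (adjusted p up to 0.12). Greb1, named after its values were seen, fell by 1.37 from levels of 5.94 to 6.42 to levels under the bacterial control, and lost its call without any 1 of the 6 arrays. Wnt4, the Wnt that drives the conversion to epithelium, read 9.89, 9.96 and 9.05 and then 8.75, 8.55 and 8.80, a difference of -0.93 that did not pass (adjusted p = 0.0821).

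**Figure D2:**
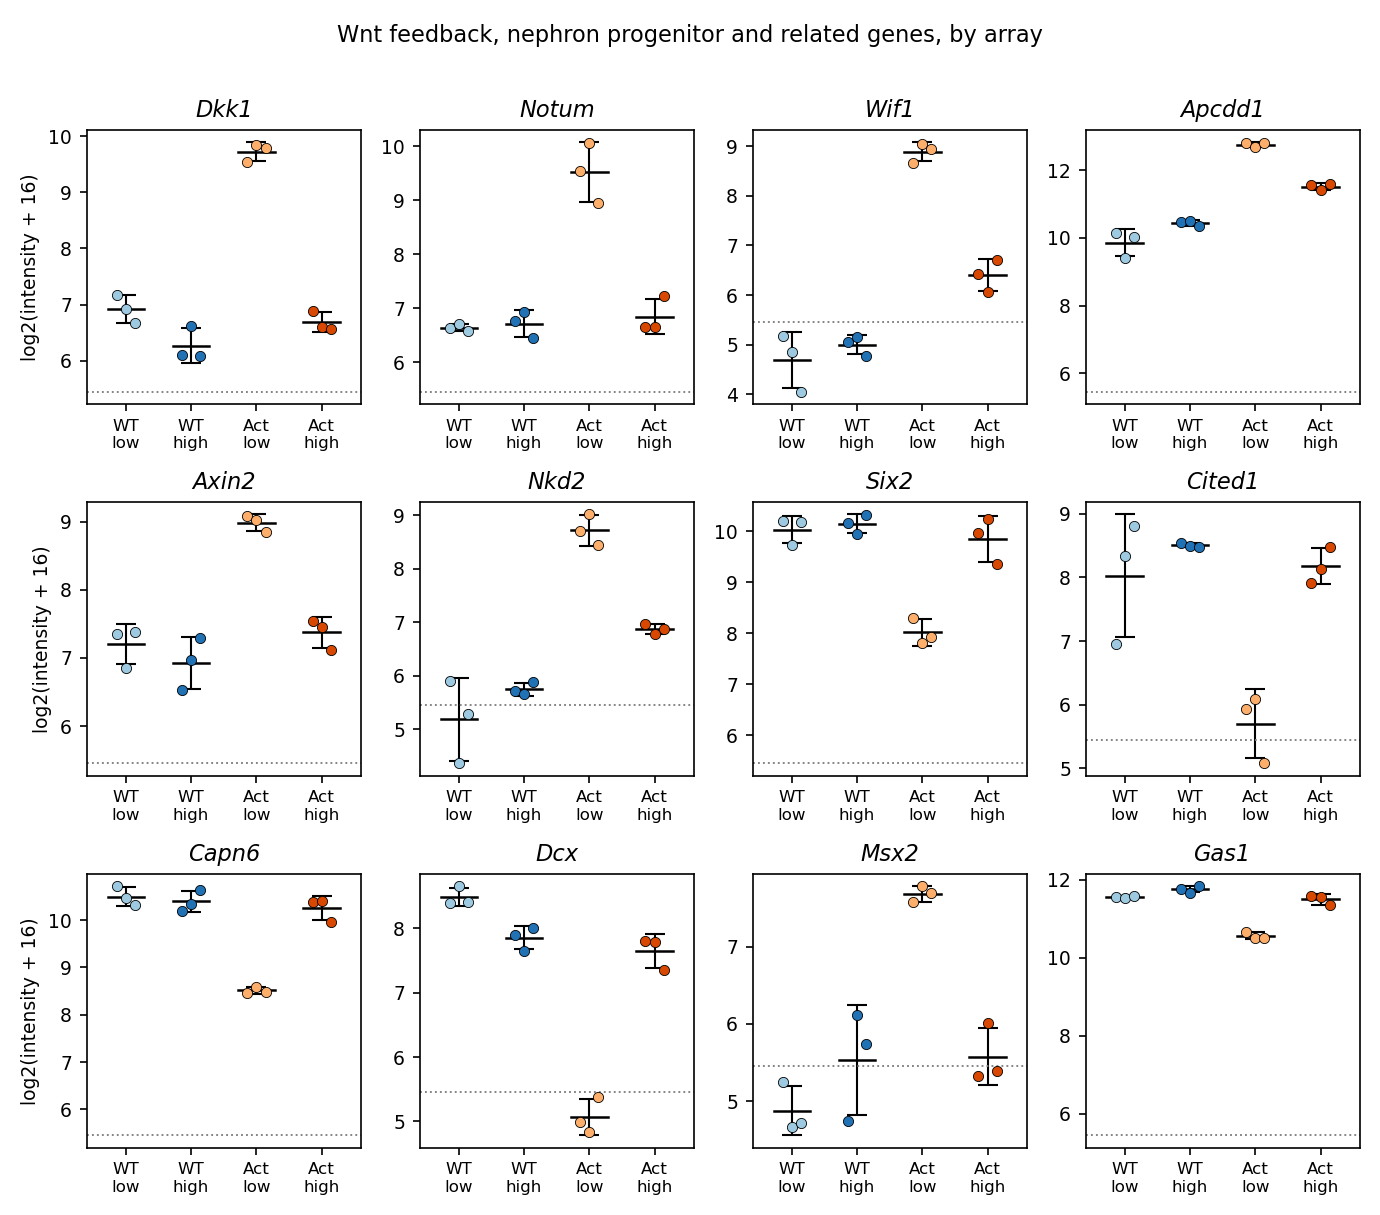
Each panel gives log2(intensity + 16) of a gene in the 12 arrays, with WT for wildtype, Act for activated, and low and high for the runs; bars are the mean and SD of 3 arrays, the dotted line is the highest bacterial control (5.45), and the vertical scales differ between panels. Dkk1, Notum, Wif1, Apcdd1, Axin2, Nkd2 and Msx2 stand highest in the lower-run activated arrays, where Six2, Capn6, Dcx and Gas1 stand lowest.

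BMP and TGF-beta genes were mixed. Of 24 measured members 4 fell (16.7%, against 0.799% of all genes) and 1 rose (4.17%, against 1.98%). The median was -0.37 against -0.01 in wildtype kidneys. Only 1 fall was called without lower 1, lower 3, higher 1, higher 2 or higher 3. That gene was Msx2, a homeobox target of BMP signalling, which read 7.58, 7.79 and 7.69 and then 5.33, 6.01 and 5.39. Its fall of 2.11 (SE 0.26, adjusted p = 0.00326) brought 2 of the 3 higher-run arrays under the bacterial control. Bmp4 and Id2 fell by 1.59 and 0.47, both named after their values were seen and both called in 1 of 6 fits without an array, and Tgfb3, a TGF-beta ligand, rose by 1.39 (adjusted p = 0.0213), which was lost without lower 1, higher 1, higher 2 or higher 3. Smad6 (-0.55), Id1 (-0.97) and Bmp7 (-0.13) did not pass.

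The genes of hypoxia and glycolysis held 3 falls (10.7%, against 0.799% of all genes) and 1 rise (3.57%, against 1.98%) among 28 measured. The median was -0.32 against 0.16 in wildtype kidneys, where 3 rose and 0 fell. Ldha, lactate dehydrogenase A, read 10.27, 11.28 and 10.83 in the lower run and 9.39, 9.68 and 9.35 in the higher run, a fall of 1.32 (adjusted p = 0.0186). Bnip3, a mitophagy receptor induced by hypoxia, fell by 1.44 and Pfkl, a phosphofructokinase, by 1.26, with adjusted p = 0.0341 and 0.0347. Lower 2 had the highest Ldha and Pfkl and the lowest Bnip3 of its run. None of the 3 falls held in every fit without an array: 0 were called without lower 3, higher 1 or higher 2, 1 without lower 1 or higher 3, and 6 members fell without lower 2. Ndrg1, a stress-responsive gene named after its values were seen, rose by 1.44 and also rose in wildtype kidneys, by 1.94; in activated kidneys it was called in 1 of 6 fits without an array. Slc2a1 (-0.31), Pgk1 (-0.37), Vegfa (-0.13) and Adm (-0.05) did not pass.

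Inflammatory genes rose in both genotypes. A list of inflammatory, acute-phase and Il6-family genes, put together after the values were seen, had 47 measured members. Of these 23 rose (48.9%, against 1.98% of all genes) and 0 fell, with a median of 1.19. In wildtype kidneys 26 rose and 0 fell, with a median of 1.22. The activated count was 12 to 22 without 1 array (15 without lower 1 or higher 3, and 12 without higher 2). Osmr, the oncostatin M receptor, read 6.37, 6.13 and 7.03 in the lower run and 9.70, 9.86 and 9.68 in the higher run, a rise of 3.24 (SE 0.24, adjusted p = 0.000325), and it rose by 3.16 in wildtype kidneys. Socs3, the feedback inhibitor of Il6-family signalling, chosen after its values were seen, read 7.93, 7.77 and 7.95 and then 10.08, 10.21 and 10.17, a rise of 2.28. Neither gene's runs came within 2 log2 units of each other.

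Chemokines and adhesion genes belonged to the same set. Icam1, a leukocyte adhesion receptor, rose by 2.57 from levels of 5.69 to 6.15 to levels of 8.36 to 8.59. Ccl20, a chemokine for lymphocytes and dendritic cells, read 4.29, 4.27 and 4.46, all under the bacterial control, and then 7.14, 7.33 and 7.02. Ccl3, another chemokine, rose by 2.48 and lost its call without higher 2 (adjusted p = 0.057). Bcl3, a co-regulator of NF-kappaB, rose by 2.73 in activated and by 3.99 in wildtype kidneys, a difference between genotypes that did not pass (adjusted p = 0.43). Lcn2, lipocalin, a marker of tubular injury, rose by 2.56 from levels of 4.08 to 5.16. Il6 (0.95), Tnf (-0.40) and Il1b (0.52) did not pass in activated kidneys.

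Macrophage markers rose with them. Of 21 measured genes 9 rose (42.9%, against 1.98% of all genes) and 0 fell in activated kidneys, with a median of 1.16. In wildtype kidneys 9 rose, with a median of 0.94. The summed intensity of the 21 genes ranged from 1651 to 2892 in lower-run and from 6169 to 8527 in higher-run activated arrays. Lyz2, a lysozyme of macrophages, read 7.50, 6.54 and 7.12 and then 8.79, 9.70 and 9.22, a rise of 2.18 (adjusted p = 0.00619). Csf1r, the receptor that maintains macrophages, read 8.49, 7.87 and 8.94 and then 9.59, 9.81 and 9.69, a rise of 1.27 (adjusted p = 0.03), and was named after its values were seen. Adgre1 (0.30), Cx3cr1 (0.07), Aif1 (0.27) and Cybb (-0.38) did not pass. The number of rises was 3, 3, 2 and 4 without lower 1, higher 1, higher 2 and higher 3. The part of more macrophages in the inflammatory rises was not tested.

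H2-Aa, an MHC class II chain of antigen-presenting cells, had the largest rise. It read 5.19, 4.21 and 5.06, all under the bacterial control, and then 9.14, 9.41 and 8.46, a difference of 4.18 (SE 0.34, adjusted p = 0.000585). In wildtype kidneys it went from a mean of 6.89 to 8.70, and its other probe set differed by 0.72 in activated and 1.53 in wildtype kidneys. The difference between genotypes, 2.37 (adjusted p = 0.039), fell to 0.77 with the mean of all probe sets (adjusted p = 0.54) and was not called with median centring, a pseudocount of 1 or no variance trend. Of 9 measured class II genes, a list put together after the values were seen, 3 rose (33.3%, against 1.98% of all genes). The list median was 1.09. H2-Eb1 and Ctss were the others, and 1 of the 3 rises was called without lower 1, higher 1, higher 2 or higher 3. H2-Ab1 (1.59) and Cd74 (1.09), which belong to the same complex, did not pass.

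Among genes of cell stress, Cryab, a small heat shock protein, read 5.91, 5.70 and 6.16 and then 9.16, 9.64 and 9.44, a rise of 3.49 (SE 0.21, adjusted p = 0.000133). Of its other 2 probe sets 1, with both run means under the bacterial control, differed by -0.22 and the other by 2.26. Hspa1b, an inducible Hsp70, rose by 1.43, and these were the only rises among 19 heat shock genes (10.5%, against 1.98% of all genes). The heat shock median was -0.10, and in wildtype kidneys 3 rose and 2 fell, with a median of -0.14. Nupr1, a stress-induced nuclear protein, rose by 3.28, with levels of 4.18, 5.69 and 5.39 in the lower run and 8.38, 8.24 and 8.49 in the higher. Immediate early genes, which respond to growth factors and handling within minutes to hours, had 7 rises and 0 falls among 25. These rises are 28% of the list, against 1.98% of all genes. The median was 0.53 against 0.77 in wildtype kidneys, where 10 rose. Fos read 7.68, 7.46 and 7.71 and then 9.75, 9.84 and 9.59, and Egr1 rose by 1.22. In wildtype kidneys Cryab, Hspa1b, Nupr1, Fos and Egr1 differed by 2.80, 1.65, 2.32, 2.12 and 1.10. Without lower 1, higher 2 or higher 3 the list had 3 rises.

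Smaller shifts were seen in metabolic stress genes. Of 26 genes of the ATF4 and amino acid response 6 rose (23.1%, against 1.98% of all genes) and 0 fell. The median was 0.45 against 0.16 in wildtype kidneys, and 2 rose without lower 1, higher 1 or higher 2. With the values as deposited or arrays centred on their medians 3 rose. Slc7a3, a cationic amino acid transporter, rose by 1.72 (adjusted p = 0.00565), and Asns, asparagine synthetase, by 1.47 (adjusted p = 0.0148), the latter lost without lower 1, higher 1 or higher 2. Of 17 genes of cholesterol synthesis 5 rose (29.4%, against 1.98% of all genes) and 0 fell. Their median was 0.48 against 0.38 in wildtype kidneys. Fdft1, squalene synthase, read 10.98, 10.89 and 11.07 and then 11.68, 11.78 and 11.65, while its other 3 probe sets differed by -0.41 to 0.54. The probe set at -0.41 had both run means under the bacterial control. The cholesterol count was 2, 2, 1, 3 and 3 without lower 1, higher 1, higher 2, lower 3 and higher 3, 3 with the values as deposited and 0 with arrays centred on their medians. Hmgcs1, a synthase early in the pathway, rose by 0.48, but its other 3 probe sets, all above the bacterial control, differed by -0.09 to -0.02. Of 18 p53 targets 3 rose (16.7%, against 1.98% of all genes): Pmaip1, Perp and Cdkn1a, by 1.58, 1.63 and 0.67. The count was 0 without higher 2 and 1 without higher 1 or higher 3. In wildtype kidneys 4 p53 targets rose, with a median of 0.53 against 0.43 in activated kidneys. Pmaip1, Perp and Cdkn1a differed by 2.22, 1.71 and 2.12 there. Lysosomal genes had 4 rises among 21, against 1.98% of all genes, led by the protease gene Ctsb (0.96, adjusted p = 0.00203). The lysosomal count was 1 without higher 1 or higher 2. It was 2 without lower 1, with the values as deposited or with arrays centred on their medians. Wildtype kidneys had 6 rises in this list, with a median of 0.47 against 0.38 in activated kidneys. Ctsb differed by 0.93 in wildtype kidneys.

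Matrix and contractile genes rose as well. Of 29 measured genes of collagens, proteoglycans and other matrix 11 rose (37.9%, against 1.98% of all genes) and 0 fell. The median was 0.59 against 0.36 in wildtype kidneys, where 5 rose. The runs of activated kidneys lay apart with the higher run on top in 19 of the 29, against 1411 of all 12393 genes (11.4%). Eln, elastin, read 7.22, 6.88 and 7.26 and then 8.89, 9.09 and 8.76, a rise of 1.79 (SE 0.19, adjusted p = 0.00165). Dcn, decorin, a collagen-binding proteoglycan, read 9.87, 9.94 and 9.98 and then 10.95, 11.01 and 10.82, a rise of 1.00. Bgn, biglycan, rose by 0.85 and lost its call without higher 2 (adjusted p = 0.054). The matrix count was 3, 5, 6, 3 and 4 without lower 1, lower 3, higher 1, higher 2 and higher 3.

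Of 23 stromal genes 4 rose (17.4%, against 1.98% of all genes), namely Lox, Dcn, Acta2 and Postn. In wildtype kidneys 6 rose and 2 fell, with a median of 0.08 against 0.37 in activated kidneys. Lox, Dcn and Acta2 differed by 1.04, 0.70 and 0.97 there. Lox, which crosslinks collagen and elastin, rose by 2.16 (adjusted p = 0.000708). Acta2, smooth muscle actin, read 11.12, 11.03 and 10.87 and then 12.29, 12.59 and 12.33, a rise of 1.40 (adjusted p = 0.00051). Its other probe set, with both run means under the bacterial control, differed by -0.45. The stromal transcription factor gene Foxd1 differed by 0.06 and the receptor gene Pdgfra by 0.33, and neither passed. Among 20 smooth muscle genes, listed after the values were seen, 6 rose in activated (30%, against 1.98% of all genes) and 7 in wildtype kidneys. In activated kidneys 2 were called without higher 2 and 4 without lower 1 or higher 1.

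Sprr1a, a cornified envelope protein of stratified epithelium, read 5.12, 4.96 and 5.34 and then 7.90, 8.17 and 8.65, a rise of 3.10 (adjusted p = 0.000585). Ctse, an aspartic protease of surface epithelia, read 6.26 to 6.80 and then 9.10 to 10.31, a rise of 3.29, while its other probe set differed by -0.70. Sprr1a and Ctse differed by 2.31 and 3.07 in wildtype kidneys. A list of stratified and urothelial genes was put together after the values were seen. Of its 30 measured members 11 rose (36.7%, against 1.98% of all genes) and 0 fell, with a median of 0.58. In both runs 16 members were under the bacterial control, and 10 members rose in wildtype kidneys. Without lower 1, lower 3, higher 1 or higher 2 between 5 and 7 were called. Of 24 genes of the ureteric bud 1 rose, Krt8, a simple-epithelium keratin (1.17, adjusted p = 0.0117), and 1 fell, Tfap2a, a transcription factor (-1.11, adjusted p = 0.0341). Each is 4.17% of the list, against 1.98% risen and 0.799% fallen of all genes. Krt8 lost its call without lower 1, higher 1, higher 2 or higher 3, Tfap2a was called only in the fit without lower 2, and without lower 2 the list had 5 rises. With arrays centred on their medians 3 members rose. At an unadjusted p under 0.05, 10 of the 24 were higher and 2 lower, against 1064 and 739 of all 12393 genes. Ret (-0.53), the receptor of the bud tip, and Wnt11 (-0.61) did not pass. Among 19 proximal tubule and 18 podocyte genes 0 passed in activated kidneys in either direction by limma, with medians of 0.26 and 0.12. At an unadjusted p under 0.05, 7 and 5 were higher and 0 and 1 lower, beside the same 1064 and 739 of all 12393 genes. In wildtype kidneys 3 proximal tubule genes rose, among them Lrp2, the endocytic receptor megalin (1.35); its difference of 0.92 in activated kidneys did not pass.

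Embryonic globins fell. Hbb-y, an embryonic beta-like globin gene, read 13.24, 13.21 and 13.36 in the lower run and 11.20, 10.35 and 11.44 in the higher run, a fall of 2.27 (SE 0.23, adjusted p = 0.00139). Hba-x, the embryonic alpha-like globin gene, read 9.26, 8.91 and 9.23 and then 6.95, 6.87 and 7.13. Hbb-bh1 fell by 2.82 to levels of 4.29 to 5.50 and lost its call without lower 1 (adjusted p = 0.06). The 3 genes also fell in wildtype kidneys, by 1.92, 2.07 and 3.21. The other erythroid genes, 10 of the 13 measured, did not pass, among them Hba-a1 (0.11) and Alas2 (0.06), so the summed level of the list, between 11246 and 12877 before and 2598 and 3911 after, followed the embryonic globins.

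**Figure D3:**
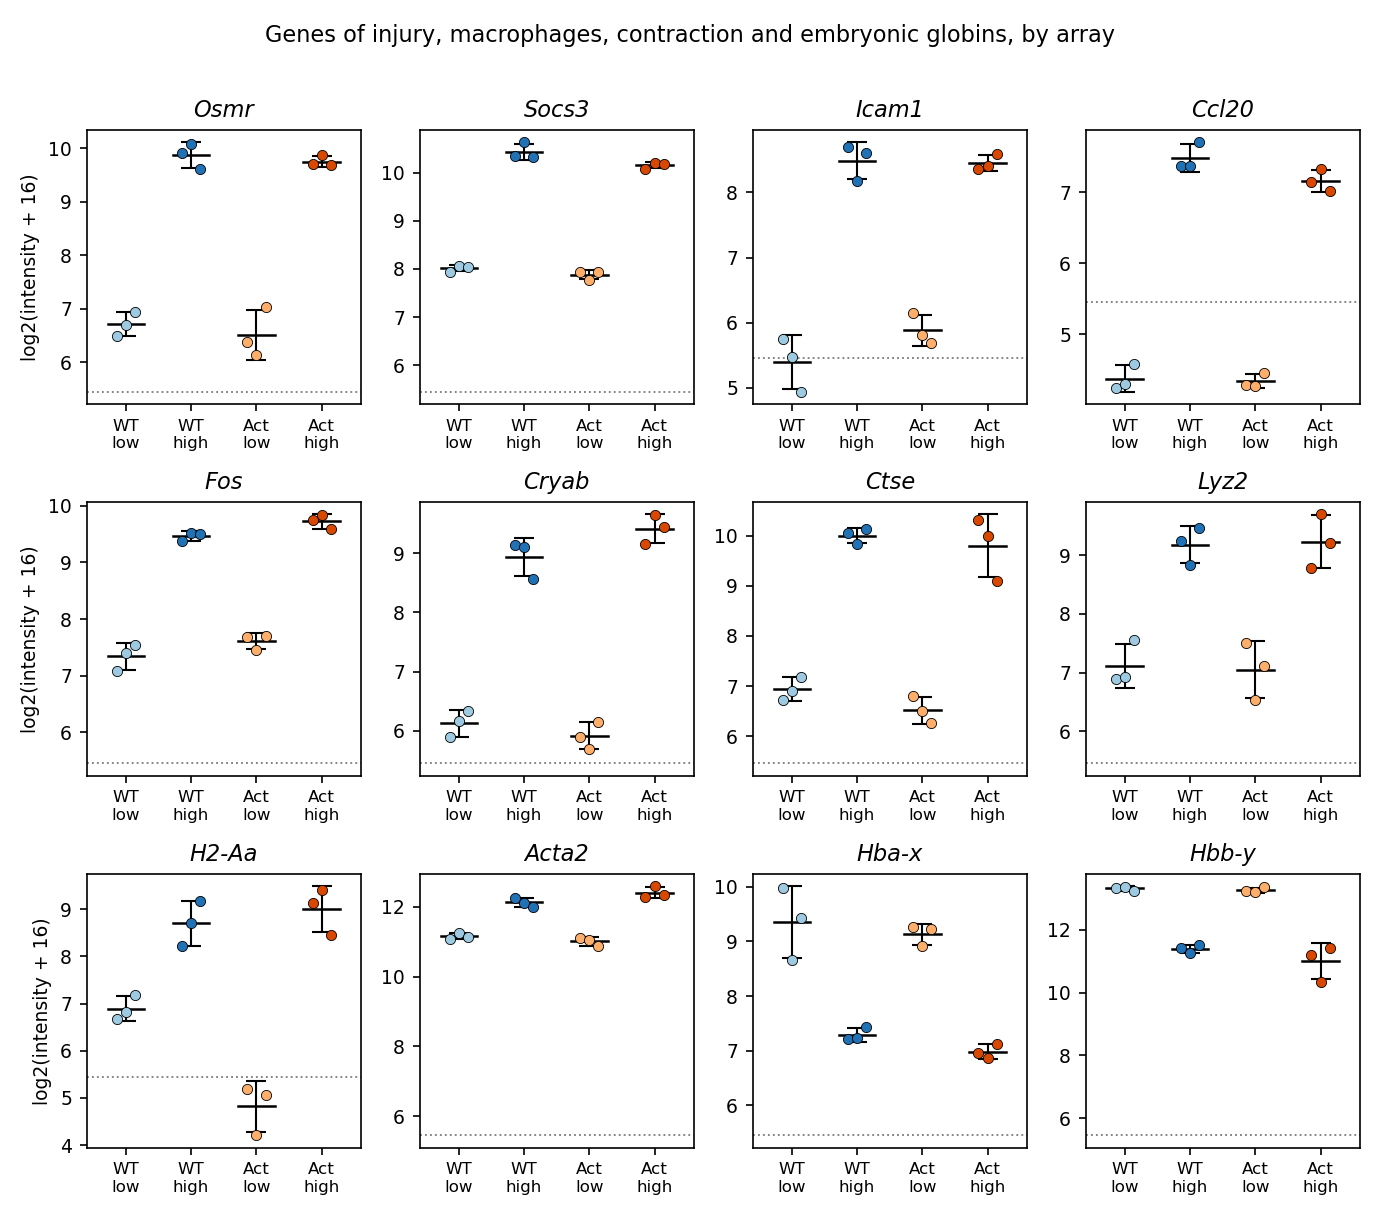
Panels give log2(intensity + 16) in the 12 arrays for genes that differed between the runs in both genotypes, drawn as mean and SD of 3 arrays with the highest bacterial control (5.45) dotted and separate vertical scales. In each panel the runs separate within wildtype and within activated arrays, upward in all but Hba-x and Hbb-y.

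Markers of other cells that a dissected kidney can carry are given beside the 2.78% called among all genes. Of 23 endothelial genes 0 passed by limma and the median was -0.14. At an unadjusted p under 0.05, 4 were lower, against 739 of all 12393 genes. Skeletal muscle genes were under the bacterial control in both runs for 18 of 24, with 1 rise (Tnnt2) and 1 fall (Tnni1) close to it, the former called only in the fit without higher 3 and the latter in none without an array. Among 21 neural genes Dcx and Elavl4 rose; Elavl4, a neuronal RNA-binding protein, by 1.42 (adjusted p = 0.0453), which was lost without any 1 of the 6 arrays. Of 19 cartilage and bone genes Col9a1 and Dlx5 fell, by 1.60 and 1.46; the former lost its call without lower 1 or higher 2, and the latter kept it only without lower 2. Gata4 rose and Lhx9 fell among 14 gonadal and adrenal genes, Gata4 between levels all under the bacterial control. Both run means of Lhx9 were also at or under that control. Gata4 was called in 0 and Lhx9 in 1 of the 6 fits without an array, and neither with arrays centred on their medians.

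Of 28 cell cycle genes 0 passed by limma in activated kidneys, 11 were lower at an unadjusted p under 0.05 (739 of 12393 over all genes), 27 of the 28 differed downward, and the median was -0.31. In wildtype kidneys 9 of them fell, with a median of -0.48. Among 23 imprinted and insulin-like growth factor genes Igfbp7, Igfbp5 and Igf1 rose (3 of 23, against 1.98% of all genes), by 1.31, 0.95 and 1.04. In wildtype kidneys these genes differed by 1.82, 0.44 and 1.01. Igf1 lost its call in activated kidneys without lower 1, higher 1 or higher 2. Among 20 genes of retinoic acid Tgm2, transglutaminase, rose by 1.60 (adjusted p = 0.000256), and 1 of its other 5 probe sets differed by -0.03. Slit2, Robo1 and Epha7, a guidance ligand and receptors for such ligands, fell by 0.82, 1.14 and 1.00 among 26 guidance genes (11.5%, against 0.799% of all genes), and Unc5c, a netrin receptor, rose by 0.61. The falls were lost without lower 1, higher 1 or higher 2, and the list had 2 falls without lower 3 or higher 3. Unc5c, chosen after its values were seen, was called in 1 of 6 fits without an array and not with arrays centred on their medians. Oxidative phosphorylation genes (23) and ribosomal protein genes (14) had medians of 0.02 and 0.04, and 0 of them passed by limma. At an unadjusted p under 0.05 there were 1 and 0, against 1803 of all 12393 genes.

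**Figure D4:**
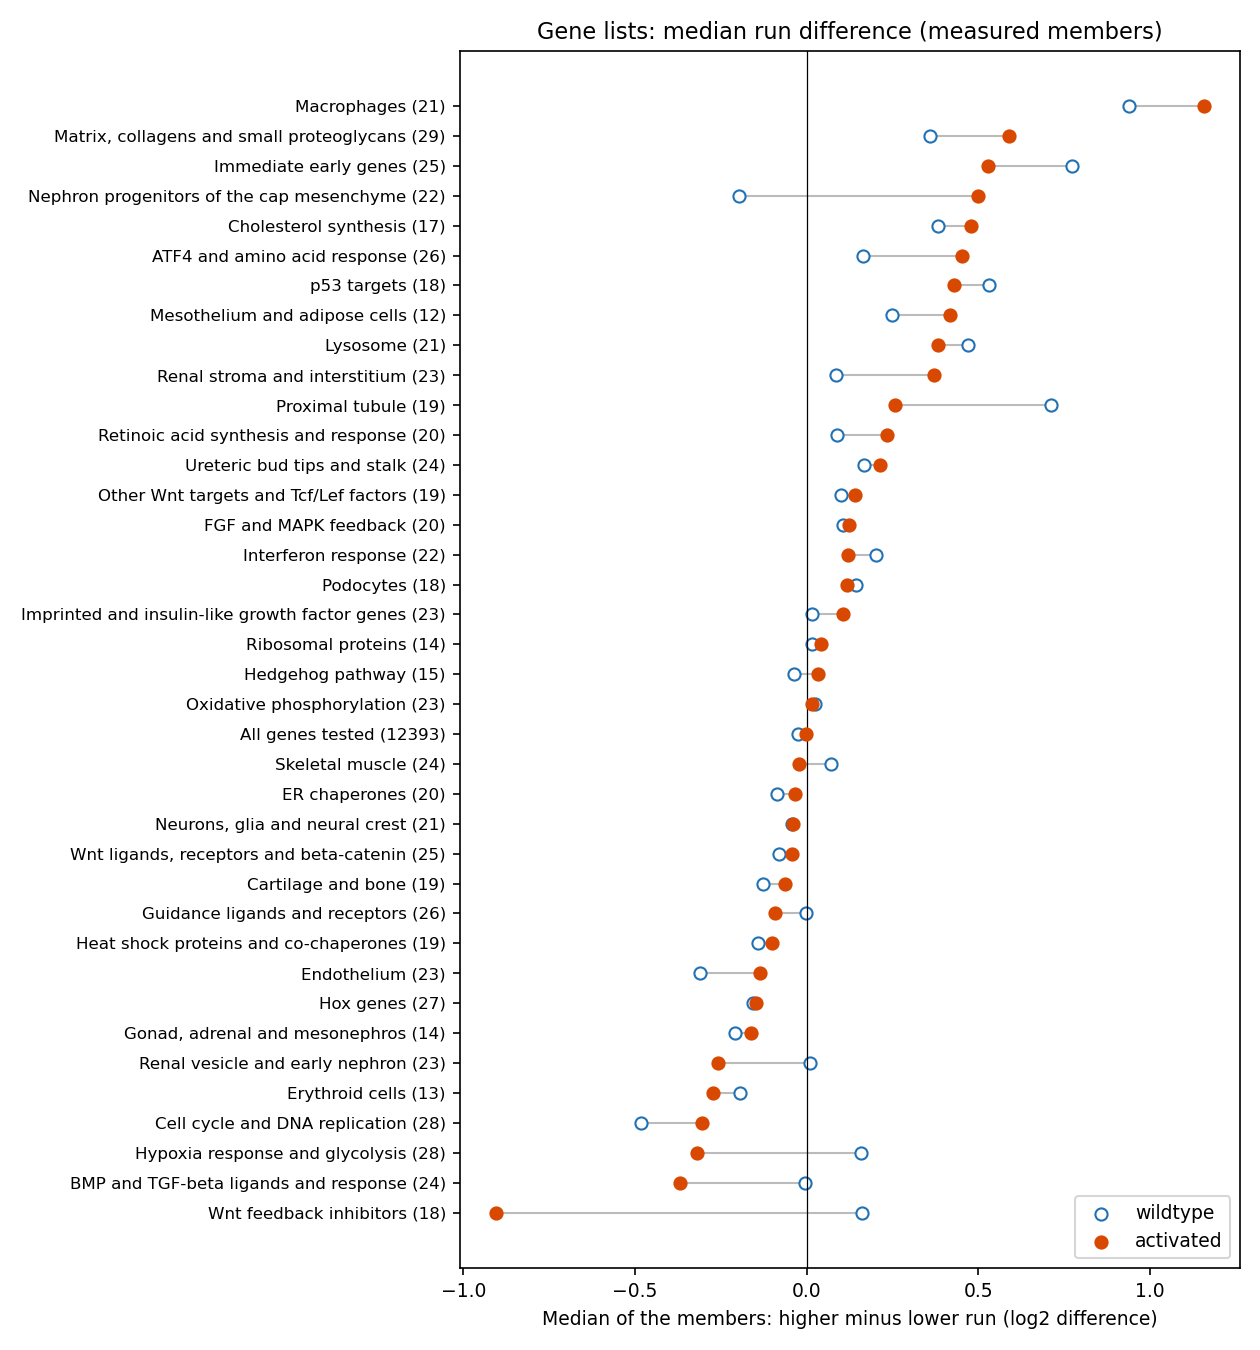
For each gene list the median difference of its measured members, higher minus lower run on the log2 scale, is shown for activated (filled) and wildtype kidneys (open), with the number of members measured in brackets. Wnt feedback inhibitors (-0.91 and 0.16) and nephron progenitors (0.50 and -0.20) lie on opposite sides of 0 in the genotypes, while macrophages (1.16 and 0.94) lie high in both.

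In wildtype kidneys 410 genes rose (3.31%) and 221 fell (1.78%) between the runs. Of the 246 genes that rose in activated kidneys 165 (67.1%) also rose there, which is 40.2% of the wildtype rises. Of the 99 that fell 17 (17.2%) also fell, 7.69% of the wildtype falls. A positive wildtype difference was found for 233 of the 246, and a negative one for 66 of the 99. Across 12393 genes the activated and wildtype differences, which share no array, had a correlation of 0.519, given as a description since genes are not independent and both contrasts follow the same pair of runs.

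The run difference itself differed between activated and wildtype kidneys for 41 genes (0.331%) in a limma fit over all 12 arrays. It was more positive in activated kidneys for 12 and more negative for 29, and with arrays centred on their medians for 3 and 15. Among wildtype arrays Xist was high in both runs, in wildtype lower 2 (11.88) and wildtype higher 2 (11.90). Among activated arrays it was high in the higher run only. The 5' to 3' ratios of wildtype arrays lay between -2.23 and -1.43, a narrower range than in activated arrays. With the Y-linked mean as a covariate 53 genes were called, and with the ratio 89. Of the 41 genes 32 were also called in activated kidneys, 11 among the rises and 21 among the falls. Wnt feedback inhibitors gave 6 of the 41: Dkk1, Notum, Wif1, Apcdd1, Nkd2 and Frzb. The difference of differences was -2.38 for Dkk1 (SE 0.29, adjusted p = 0.0021), -2.75 for Notum, -2.79 for Wif1 and -1.82 for Apcdd1 (adjusted p = 0.0019), and these 4 were kept in each of the 12 fits without an array. With a pseudocount of 1 Wif1 lost its call (-3.85, adjusted p = 0.18). Nkd2 (-2.42, adjusted p = 0.031) and Frzb (-1.83, adjusted p = 0.024) were kept in 2 and 4 of the 12. Axin2 did not pass (-1.34, adjusted p = 0.11), nor did Sp5 (-1.65, adjusted p = 0.39).

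Progenitor genes gave Dcx, Capn6 and Six2. The difference was 3.21 for Dcx (SE 0.29, adjusted p = 0.00034) and 1.84 for Capn6, both kept in each fit without an array. For Six2 it was 1.72 (adjusted p = 0.025), called in 5 of those 12 fits and not called with arrays centred on their medians. It was lost without higher 1, higher 2, lower 3 or any 1 of wildtype lower 1, wildtype lower 3, wildtype higher 1 and wildtype higher 2 (adjusted p up to 0.085). With the mean of all probe sets Dcx differed by 1.33 and did not pass. That mean took in probe sets under the bacterial control, at 4.62 and 4.57 on average in activated arrays. A further probe set above it differed by 2.36 in activated and by -0.57 in wildtype kidneys. Cited1 did not pass (1.99, adjusted p = 0.2).

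Genes outside the lists showed the same form as the Wnt inhibitors. Efhd1, a mitochondrial calcium-binding protein, read 8.22, 8.21 and 8.49 in the lower-run activated arrays, 5.70, 5.45 and 6.56 in the higher-run ones, and 4.16 to 6.10 in wildtype kidneys. Its fall of 2.41 in activated kidneys and wildtype difference of 1.16 gave -3.57 (SE 0.49, adjusted p = 0.0047). Tfap2c, a transcription factor, read 8.07, 7.51 and 8.18 and then 5.60, 6.06 and 5.54, against 4.14 to 5.46 in wildtype arrays. Srgn, the proteoglycan serglycin, read 9.10, 8.76 and 9.25 and then 7.57, 7.32 and 6.99, against 6.31 to 7.27. In these 3 genes every lower-run activated array lay above every other array. Tent5c, which encodes a poly(A) polymerase, fell by 1.92 and Gnai1, an inhibitory G-protein subunit, by 0.91 in activated kidneys, with wildtype differences of 0.94 and 0.45. The fall of Gnai1 in activated kidneys alone was lost without lower 1, lower 3, higher 1 or higher 2, and its difference between genotypes did not pass with arrays centred on their medians.

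Cdhr1, a protocadherin known from photoreceptors, read 5.23, 5.23 and 5.02 in the lower-run activated arrays, under the bacterial control, and 7.83, 8.14 and 7.75 in the higher-run ones, against 7.14 to 8.29 in wildtype kidneys. Gas1, a hedgehog co-receptor, rose by 0.93 from 10.51 to 10.67 up to 11.34 to 11.58, and its difference between genotypes, 0.73 (adjusted p = 0.024), was called in 5 of 12 fits without an array. With arrays centred on their medians neither its rise (adjusted p = 0.053) nor that difference (adjusted p = 0.28) was called, and the difference was also lost without a variance trend (adjusted p = 0.20). Further falls in activated kidneys were those of Armh4 (2.56), Kcne3, a potassium channel subunit (2.41), Mab21l1 (2.10), Bcl11a, a transcriptional repressor (2.02), Wdr86 (1.98) and the homeobox gene En2 (1.92). Of these Armh4 and En2 also differed between genotypes, and En2 lost its fall without higher 2 (adjusted p = 0.054). Kcne3, Mab21l1 and Bcl11a did not pass that test (adjusted p = 0.26, 0.057 and 0.13), and Wdr86 fell in wildtype kidneys too, by 1.78.

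**Figure D5:**
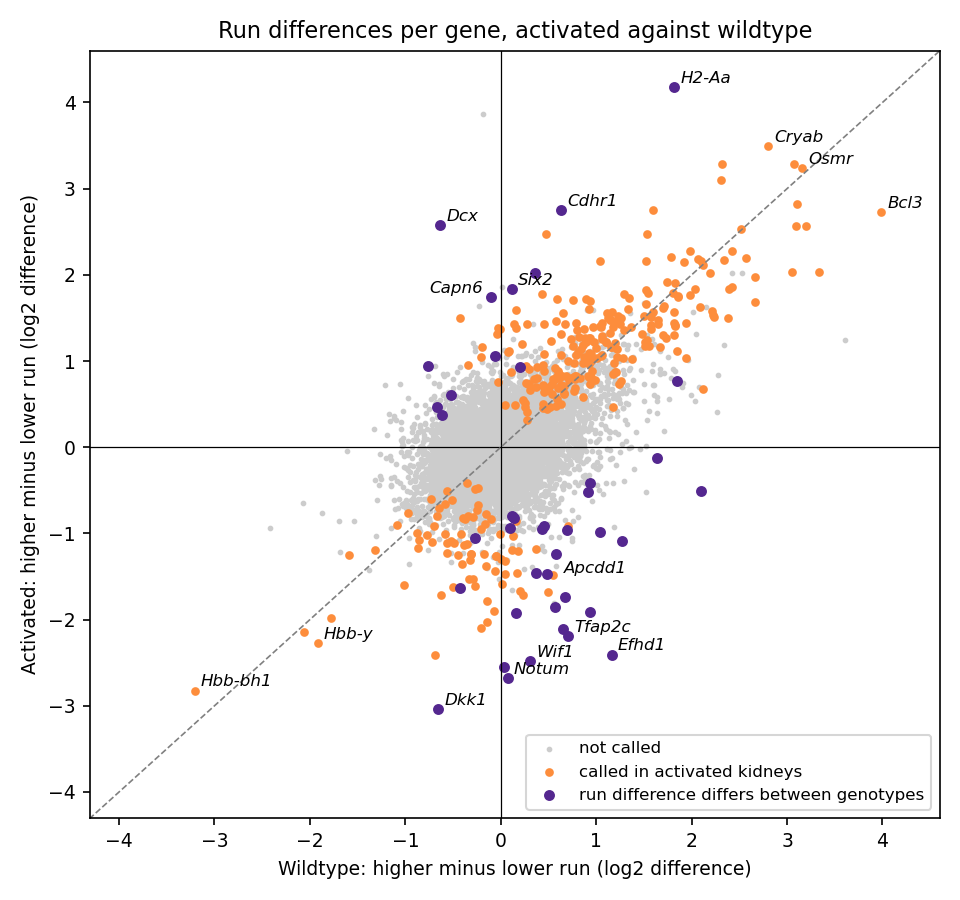
Each point is 1 of 12393 genes, with its difference between the runs in wildtype kidneys on the horizontal and in activated kidneys on the vertical axis (log2); orange points were called in activated kidneys, purple points differed between the genotypes, and the dashed line marks equal differences. Osmr, Cryab and Hbb-bh1 lie near the line, while Notum (0.07) and Wif1 (0.31) lie far below 0 at small wildtype differences and Dcx lies at -0.64 in wildtype and 2.58 in activated kidneys; the gray point near -0.19 and 3.87 is Xist.

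Gask1b, a Golgi-associated kinase-like gene, read 8.54, 8.10 and 8.65 in the lower and 8.25, 8.82 and 8.54 in the higher run, so the runs overlapped. Its difference of 0.10 did not pass (adjusted p = 0.897). Wt1 and Calb1, at 0.37 and 0.29, did not pass either.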

How the data were processed

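RNA from 12 cultured fetal kidney samples was measured on Affymetrix 3' expression arrays. The deposited values are intensities on a linear scale for 22690 probe sets; which summarisation software the authors ran was not given in the sources used here. Every array has the same mean (250.099 to 250.126) after trimming 2% from each end, so the deposited intensities had been scaled. Here log2(intensity + 16) was quantile-normalised. This pseudocount understates the change of dim genes. Probe sets with 1 gene symbol (20380) were kept, 691 with several, 1555 with none listed and 64 controls were left out, and for each of 12393 genes the probe set that was brightest on average across the 12 arrays was used. Symbols come from the platform annotation, and 12369 gene identifiers were found in the RefSeq table. Arrays were grouped by genotype and title-number run, 3 per group.

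Differences were tested with limma 3.58.1 in R 4.3.3 (moderated variance with a trend, two-sided, Benjamini-Hochberg over 12393 genes): 3 against 3 activated arrays, 3 against 3 wildtype arrays, and the difference between these over 12 arrays. The fits were also run on simulated arrays with independent genes and no effects shared across an array. That run checks the code and cannot give the error rate in these arrays. Gene lists, 38 of them with 4 added, are described by counts and medians without a test. The members and lists were chosen with earlier results of these data known. Named genes were up to 15 called rises and 15 falls of the largest size with runs apart and the brighter mean above the bacterial controls, up to 3 members per list with the smallest adjusted p, up to 10 genes with the smallest adjusted p for the difference between genotypes, and a fixed set (Ctnnb1, Apcdd1, Axin2, Wif1, Six2, Wt1, Calb1, Gask1b and Xist); Ddx3y was not among the genes tested. Sex-linked genes were kept out of the ranked groups. Genes outside this rule, including those given with a difference alone, were chosen after their values were seen. Alternatives were the values as deposited, median centring, a pseudocount of 1, a filter on the dimmest 40%, the mean of all probe sets, other variance settings, array weights, covariates, stricter thresholds and leaving out each array. Plots were drawn with matplotlib 3.10.9.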

Additional observations from a re-analysis of the deposited data

Results flagged for a closer look

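The run difference differed between activated and wildtype kidneys for 41 genes by limma's test of the difference itself, and 19 of these are genes named by the rule. The more negative differences, activated minus wildtype, were -3.57 for Efhd1, -2.89 for Tfap2c, -2.85 for Tent5c, -2.79 for Wif1, -2.77 for Msx2, -2.75 for Notum, -2.59 for Armh4, -2.41 for Srgn, -2.38 for Dkk1, -2.08 for En2, -1.82 for Apcdd1 and -1.36 for Gnai1. The more positive differences were 3.21 for Dcx, 2.37 for H2-Aa, 2.11 for Cdhr1, 1.84 for Capn6, 1.72 for Six2, 1.71 for Gata4 and 0.73 for Gas1. Msx2, En2, Armh4, H2-Aa, Six2, Gata4 and Gas1 lost the call in at least 2 of the 12 fits that left out an array, and the other 12 were kept in each. Under other settings Wif1, Msx2, En2 and H2-Aa lost the call with a pseudocount of 1. Six2, Gas1, Gata4, Gnai1 and H2-Aa lost it with median centring, and Six2, Gas1 and H2-Aa without a variance trend. With the mean of all probe sets it was lost for Dcx (1.33), Gnai1 (-1.06), Gata4 (0.91) and H2-Aa (0.77), and for H2-Aa the other probe set differed by 0.72 in activated and 1.53 in wildtype kidneys. For Dcx that mean took in probe sets under the bacterial control. The smallest number of fits without an array that kept a call was 2, for En2 and H2-Aa.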

How the results depend on the processing

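In activated kidneys, where 345 genes (246 higher, 99 lower) were called, the count without a single array ran from 90 to 426 (60 to 274 higher, 30 to 152 lower). It was 196 (134 and 62) without a variance trend, 803 (504 and 299) with array weights, 983 (574 and 409) with the 5' to 3' control ratio as covariate, 609 (422 and 187) in a fit of 4 groups over 12 arrays, and 123 (85 and 38) at an adjusted p of 0.01. With the mean of all probe sets 162 rose, and 163 rises had a size of at least 1. Without lower 2 and higher 3 together, chosen after seeing the data, it was 567 (357 and 210). In wildtype kidneys the count of 631 ran from 226 to 468 (168 to 334 higher, 58 to 148 lower) without a single array. It was 300 (236 and 64) without a trend, 213 (168 and 45) at 0.01 and 268 (229 and 39) for sizes of at least 1, and 139 fell with the mean of all probe sets. For the difference between genotypes the 41 genes became 16 to 47 (4 to 14 more positive, 11 to 33 more negative) without an array, 18 (3 and 15) with median centring, 24 (5 and 19) without a trend, 88 (33 and 55) with array weights, 89 (35 and 54) with the ratio covariate and 13 (3 and 10) at 0.01. The more positive count was 7 with the mean of all probe sets and 20 with a robust trend or the Y-linked covariate. The 104 called list members became 38 to 119 without an array. Where the settings differ in genes or arrays used, those numbers differ by construction; otherwise the cause was not tested.

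Under these settings the sign of single named genes turned only for uncalled ones, while single other probe sets of the called genes Ctse (-0.70), Acta2 (-0.45), Cryab (-0.22), Fdft1 (-0.41) and Tgm2 (-0.03), and the 3 of Hmgcs1 (-0.09 to -0.02), had the opposite sign, as had 1 of Tfap2a (0.07) and 2 of Fabp4 (up to 0.24). Those of Acta2, Cryab, Fdft1, Tfap2a and Fabp4 had both activated run means at or under the bacterial control. Those of Ctse, Tgm2 and Hmgcs1 lay above it in the brighter run. Ctnnb1 gave -0.19 as deposited, -0.16 median-centred, -0.26 with the mean of all probe sets, -0.0017 without lower 2, -0.0095 without higher 1 and -0.0029 without lower 2 and higher 3, with a range of -0.0095 to 0.062 without single arrays, and its difference between genotypes 0.0086 when median-centred. Gask1b ran from -0.060 to 0.25 without single arrays, with -0.060 without lower 2, -0.039 without higher 2, and gave -0.063 without lower 2 and higher 3. Rpl27 gave -0.15 as deposited and -0.12 median-centred, Rpsa -0.11 and -0.077, and Atp5a1 -0.0083 with the mean of all probe sets. No paired analysis was possible because the replicate numbers only name the arrays in accession order. Signal over background limits the dim genes: 3430 genes had both activated means at or under the highest bacterial control.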
